A study of Mus musculus with 15 samples.

Results

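The genes described are the integrin chains, the laminin chains and the basement membrane glycoproteins fibronectin, perlecan, agrin and the nidogens. They are 34 genes, found by symbol as 53 of the 65522 transcription units measured. Levels are in FPKM, fragments mapped to a unit scaled to its length and to the depth of the library. All samples were female C57BL/6 mouse embryonic fibroblasts, and poly(A) RNA of 15 populations was sequenced. Primary populations (before passage 5, each from a separate embryo) were WT (CIZ1 +/+, embryos E14.4, E13.1 and E13.8) or CIZ1 null (CIZ1 -/-, embryos E13.15 and E14.2, with a gene trap in Ciz1). A further 2 primary samples, E13.17 and S13, were CIZ1 -/- with an inducible CIZ1 transgene and received no doxycycline, and 2 more of that genotype, S14 and S15, were treated with doxycycline at 5 to 10 µg per ml. The remaining 6 samples were culture-adapted lines, 1 from each of the 3 WT embryos and from E13.15, E13.17 and E14.2. Primary E13.15, E13.17 and E14.2 were taken as the CIZ1 null group, so that 1 of these 3 carried the uninduced transgene. The study lists the adapted line of E13.17 with the transgene too, although its sample label names CIZ1 -/- alone. Each adapted line is a single line, and p-values measure the spread between these populations, which came from separate embryos within each primary group and within each adapted group. For the transgenic samples the study names E13.17 and another embryo as the induced cells, so treated and untreated samples can share an embryo.

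Integrins are receptors of paired alpha and beta chains that span the plasma membrane and join the matrix outside the cell to the actin cytoskeleton. Laminins are trimers of an alpha, a beta and a gamma chain that form the sheet of the basement membrane, to which nidogens, perlecan and agrin bind as linkers. Fibroblasts in culture lie on fibronectin rather than on a sheet, and bind it mainly through integrins with the alpha 5 and alpha v chains.

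Ciz1 itself stood at 18.7 to 25 FPKM in the 6 WT samples and at 0.0546 to 0.724 FPKM in the 7 CIZ1 null samples without doxycycline. It reached 296 FPKM in S14 and 191 FPKM in S15. Depth, read from the steps between low values and set to 1 in primary WT E14.4, lay between 1 and 1.63 in the 6 primary populations of the main comparisons, between 0.54 and 1.18 in the adapted lines, and at 0.482 in S13. Of the fibroblast markers, Col1a1 stood at 2858 to 3186 FPKM in these primary populations and at 139 to 1231 FPKM in the adapted lines. Thy1 was listed at 0 in adapted E13.8 and stood at 0.215 FPKM in adapted E13.17. Lum was at 0 in adapted E13.1, E14.4 and E13.17, and Dcn at 0.984 FPKM in adapted E13.1. The fibroblast label was thus not met by every marker in every line.

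In level, the genes ran from Fn1 (mean 1475 FPKM over 15 samples) and Itgb1 (508 FPKM) down to Lama3 (0.109 FPKM). Next in order came Nid1 (154 FPKM), Itga5 (139 FPKM), Hspg2 (121 FPKM), Lamb1 (118 FPKM), Itgb5 (117 FPKM) and Itgav (77.6 FPKM). Of the 34 genes, 5 (Itga2, Itgb4, Itgb8, Lama3 and Lamc3) were below a mean of 1 FPKM in every comparison and were not tested, and Lama1 entered 2 of the 7 tests. The units of Itga10, Itgb6 and Lamb3 also name other genes, so their values cannot be attributed to those chains alone. By annotated span, 11 of the 34 main units cover another protein-coding gene. They include those of Itga9 (Ctdspl), Itgb1 (Ccdc7a), Nid2 (Rtraf), Itga4 (Cerkl and Neurod1), Itga7 (Mettl7b) and Itga1 (Pelo and Gm49395). Whether reads of those genes are part of the values was not tested. A gene with several units is described by the unit with the highest mean, and 18 genes had further units at the same locus, between which reads could have been split.

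**Figure D1:**
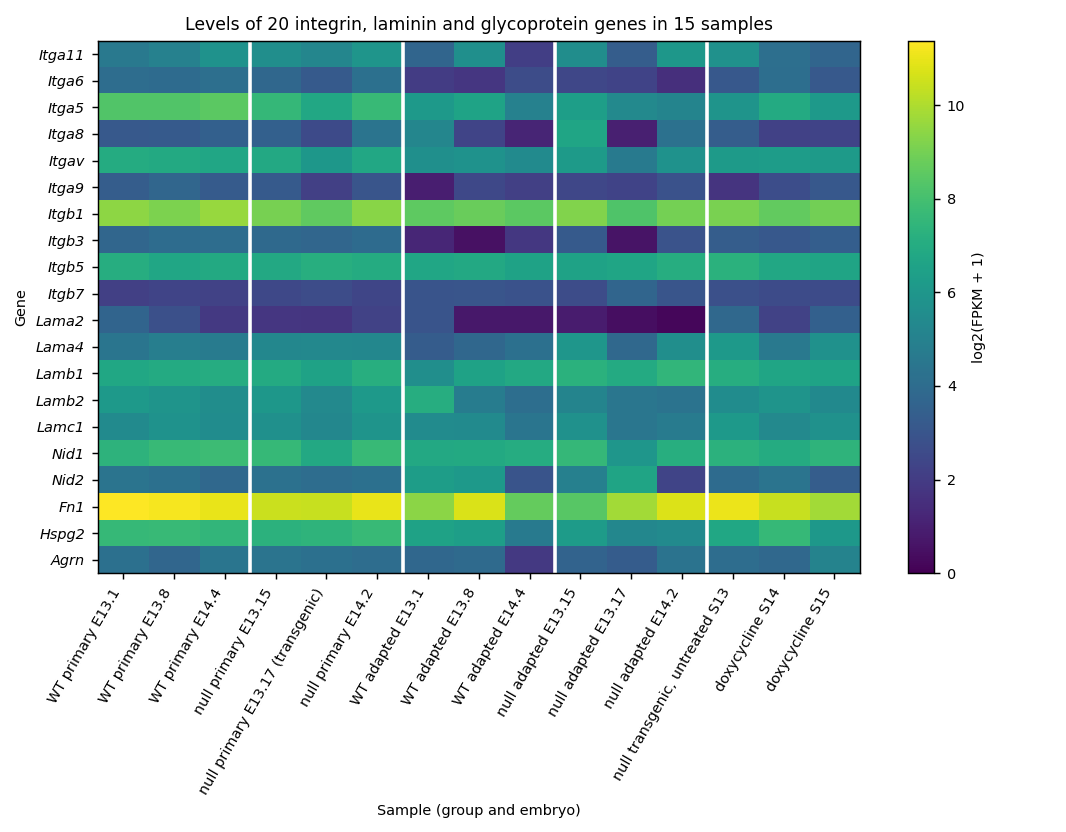
Level of 20 genes (rows) in 15 samples (columns, by group and embryo) as log2(FPKM + 1), with white lines between groups. Fn1 and Itgb1 were the brightest rows, and Itga5, Itgb3 and Hspg2 were darker in the adapted lines than in the primary populations.

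The first question taken up here was what changes when primary cells become lines adapted to long-term culture. Over both genotypes, 8 of the 28 genes tested fell on adaptation (28.6%) and 1 rose (3.6%). Among all 20046 units tested by limma with the same rule, 33.3% were called, 19.1% as lower and 14.1% as higher. The genes that fell were the integrin chains Itga5, Itga6, Itga9, Itgav and Itgb3, the laminin chain Lama2, the linker Hspg2 and fibronectin, Fn1, and the one that rose was Itgb7. The median change of the 28 genes was -0.56 on the log2(FPKM + 1) scale, against -0.05 over all units tested. The share called in either direction (32.1%) was thus near that of all units, and more of it was in the lower direction. Of the 28 genes, 24 had a mean of at least 5 FPKM in the samples of the fit. Among all units of that level 36.6% were called, and the median change was -0.13. Of those calls 65.9% were lower, against 57.5% in the main fit, so units of higher level leaned lower too. Without adjustment, 14 of 28 had a p under 0.05, where 44.1% of all units did. All 6 lines lay apart from all 6 primary populations for 4 genes (Itga5, Itga6, Itgb3 and Hspg2), where 17.4% of all units did.

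Within WT cells, 6 of 29 genes passed the test (20.7%, where 9.55% of all units did), 5 of them lower (6.68% of all units) and 1 higher (2.87%). Within CIZ1 null cells 3 of 28 passed (10.7%, where 4.86% of all units did), 3 lower (3.47%) and 0 higher (1.40%). An unadjusted p under 0.05 was reached by 13 of 29 and 6 of 28 genes, against 30.6% and 29.3% of all units. Groups of 3 did not overlap for 13 of 29 genes in WT cells and for 6 of 28 in those without CIZ1, against 38.7% and 37.1% of all units. With the embryo as a block the counts were 3 for WT cells, 0 for CIZ1 null cells and 9 over both genotypes, where 2.51%, 0.0499% and 31.4% of all units were called. Leaving out any 1 of the primary WT populations E14.4, E13.1 or E13.8 left 0 genes called in WT (0.311% to 0.352% of all units), while 10 were called without adapted E14.4 (15% of all units). In the CIZ1 null fit 0 were called without adapted E14.2 or without any 1 of the 3 primary populations, and 6 without adapted E13.15. The same fits called 0.125% to 0.201% and 15% of all units, so these counts moved with those of all units. The WT calls of Itgb1 and Itgb7 were also lost without adapted E13.1 or E13.8, and that of Itgb1 without adapted E14.4. Quantile normalization changed the split of all calls over both genotypes from 2834 higher and 3832 lower to 3749 higher and 2957 lower, and of the 34 genes it then called 1 as higher and 6 as lower.

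**Figure D2:**
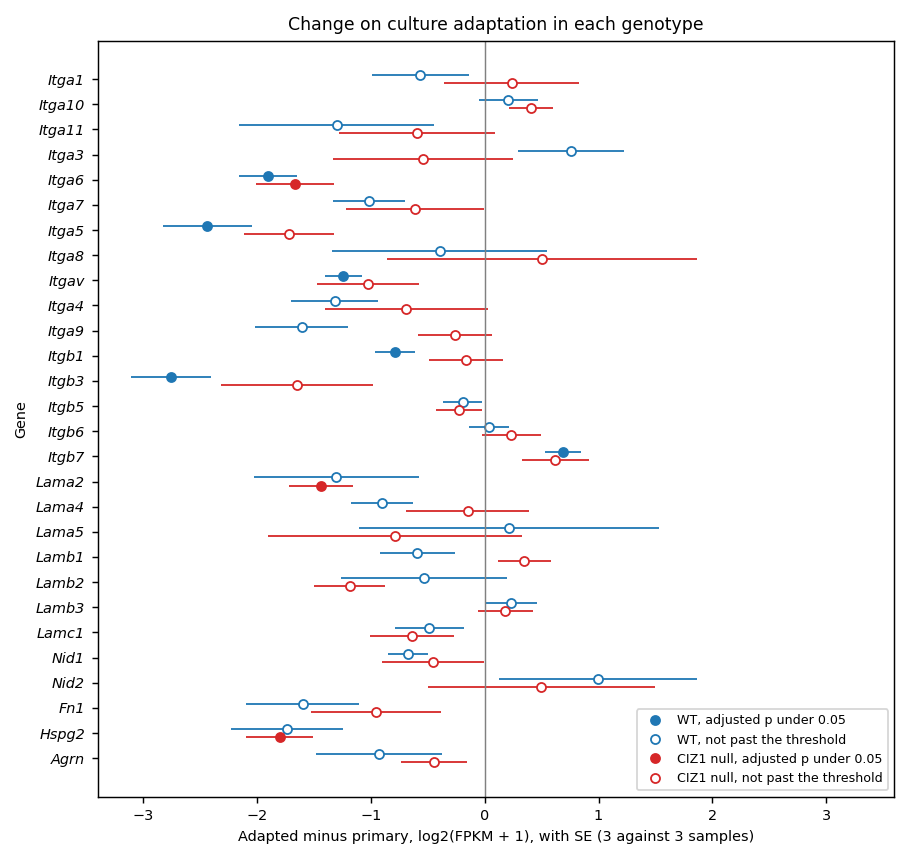
Change on adaptation (adapted minus primary, on the log2(FPKM + 1) scale, with SE, 3 against 3 samples) for the 28 genes tested, in WT (blue) and CIZ1 null cells (red), filled where the adjusted p was under 0.05. Most points lie to the left of 0 and Itgb3, Itga5 and Hspg2 are among those farthest from it.

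Of the receptors for fibronectin and other matrix proteins, Itga5 encodes the alpha chain of the main fibronectin receptor. In the embryo order E13.1, E13.8 and E14.4 it stood at 312, 307 and 362 FPKM in primary WT cells and at 70.0, 95.2 and 31.3 FPKM in the adapted lines. In the order E13.15, E13.17 and E14.2 it stood at 191, 111 and 201 FPKM in primary CIZ1 null cells and at 82.1, 40.2 and 34.1 FPKM after adaptation. Each of the 6 adapted lines was thus below each of the 6 primary populations. The mean was 4.2-fold lower in adapted cells (log2 change -2.08, SE 0.31, limma adjusted p = 0.000672). In WT cells alone the change was -2.44 (adjusted p = 0.0214, or 0.0533 with the embryo as a block) and in CIZ1 null cells -1.72 (adjusted p = 0.0577). The unit spans more than the gene, and Copz1, Gpr84 and Zfp385a lie within it.

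Itgav encodes the alpha v chain, which pairs with several beta chains and binds RGD motifs in vitronectin and fibronectin. Taking the embryos in the same order, its levels were 127, 118 and 106 FPKM in primary WT cells and 49.8, 53.9 and 43.1 FPKM in their lines. Without CIZ1 they were 116, 64.4 and 111 FPKM before and 73.1, 23.9 and 54.0 FPKM after adaptation. This unit was lower in every line than in its own primary population, although primary E13.17 was below adapted E13.15. The second unit of Itgav (mean 41.9 FPKM) rose in E13.15, from 45.6 to 55.2 FPKM, and fell in the other embryos. Its change between group medians was smaller, at -0.48 in WT and -0.22 in CIZ1 null cells on the log2(FPKM + 1) scale. For the main unit the change over both genotypes was -1.14 (SE 0.25, limma adjusted p = 0.00492). Itga8, the alpha 8 chain that pairs with beta 1, had no common direction, with 8.12, 8.45 and 10.2 FPKM in primary WT and 35.8, 4.02 and 1.28 FPKM in adapted WT cells. The CIZ1 null levels were 10.2, 4.93 and 20.05 FPKM before and 103, 1.03 and 17.9 FPKM after adaptation, so that adapted E13.15 and E13.1 stood high and the other lines did not.

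The promoters of the genes called over both genotypes are shown here to put the sequence beside the change, for those whose RefSeq start lies within 100 bases of the annotated gene start. RefSeq windows (GRCm38.p6) were at hand for 23 of the 34 genes, as 27 windows of 250 bases before to 50 bases after the start. The lines here give the 250 bases before the start, 5′ to 3′ on the strand of the gene, with capitals marking the GC box GGGCGG on either strand (CCGCCC where it lies on the other strand). The first, Itga5, is at chr15:103366792-103367041 on the minus strand, Itgav is at chr2:83724147-83724396 and Hspg2 at chr4:137468553-137468802, both on the plus strand, and Itgb7 is at chr15:102231936-102232185 on the minus strand.
Itga5: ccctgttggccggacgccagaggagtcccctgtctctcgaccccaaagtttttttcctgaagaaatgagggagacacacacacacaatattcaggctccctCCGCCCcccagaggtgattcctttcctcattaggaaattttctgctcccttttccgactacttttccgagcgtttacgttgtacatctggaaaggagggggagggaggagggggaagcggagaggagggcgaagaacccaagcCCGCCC
Itgav: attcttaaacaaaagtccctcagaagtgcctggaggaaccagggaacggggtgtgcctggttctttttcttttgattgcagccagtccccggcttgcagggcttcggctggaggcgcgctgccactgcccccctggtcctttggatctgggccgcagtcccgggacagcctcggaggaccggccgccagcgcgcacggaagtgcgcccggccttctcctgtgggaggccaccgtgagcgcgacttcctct
Hspg2: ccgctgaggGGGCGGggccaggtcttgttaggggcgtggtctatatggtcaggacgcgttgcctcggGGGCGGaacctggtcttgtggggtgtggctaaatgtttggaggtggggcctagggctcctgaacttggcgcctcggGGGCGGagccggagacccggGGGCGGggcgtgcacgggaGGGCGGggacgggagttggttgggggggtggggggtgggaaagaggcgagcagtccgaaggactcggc
Itgb7: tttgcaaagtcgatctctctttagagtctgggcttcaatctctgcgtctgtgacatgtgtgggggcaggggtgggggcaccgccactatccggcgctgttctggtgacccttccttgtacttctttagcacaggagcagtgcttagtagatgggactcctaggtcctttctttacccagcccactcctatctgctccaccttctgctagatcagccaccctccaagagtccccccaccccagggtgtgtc
The 250 bases before Hspg2 held 5 GC boxes and 20 CpG, and those before Itga5 held 2 GC boxes and 11 CpG. Neither Itgav (18 CpG) nor Itgb7 (5 CpG) had a GC box there. Over the windows of 300 bases, 15 of the 27 held a GC box, against 35.7% of the 32851 windows of all genes. TATAAA was in 0 of the 27 (13.6% of all windows), the AP-1 motif TGANTCA in 2 (7.81%), the TEAD motif CATTCC in 4 (14.7%) and CCAAT in 4 (37.4%), each searched on both strands. None of these motifs contains another. Median GC content was 59.3% in the 27 windows and 52.7% in all.

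Among the receptors for laminin, Itga6 encodes the alpha 6 chain. Its values in WT cells were 15.8, 14.5 and 16.9 FPKM in primary and 3.11, 2.43 and 5.31 FPKM in adapted samples. CIZ1 null samples gave 12.8, 8.34 and 17.5 FPKM and then 4.29, 3.85 and 1.89 FPKM. Primary and adapted groups did not overlap in either genotype. It was the one gene called in each genotype as well as over both, with changes of -1.91 in WT (limma adjusted p = 0.0150), -1.67 in CIZ1 null (adjusted p = 0.0483, or 0.112 with the embryo as a block) and -1.79 over both (SE 0.22, adjusted p = 0.000242). It passed in 21 of 21 alternatives over both genotypes, in 11 of 14 in WT and in 5 of 16 in CIZ1 null cells. The totals of 21 and 16 count 1 fit under 2 names, as the fit with 2 primary CIZ1 null samples is that without primary E13.17. The CIZ1 null call was lost with a pseudocount of 0.1, without a filter and with summed units, among others. Itga3 and Itga7, alpha chains of other laminin receptors, did not pass. Itga3 ranged from 3.69 to 7.81 FPKM in the 6 primary populations and from 0.709 to 18.2 FPKM in the 6 lines, and Itga7 from 6.94 to 11.9 FPKM and from 2.40 to 15.8 FPKM.

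The collagen receptor chains behaved differently from one line to the next. Itga11, the alpha 11 chain that binds fibrillar collagen, had 23.2, 31.1 and 55.0 FPKM in primary WT and 12.1, 49.6 and 3.38 FPKM in adapted WT cells. The CIZ1 null samples had 48.2, 36.0 and 59.6 FPKM and then 46.8, 9.17 and 64.8 FPKM. Adapted values lay on both sides of the primary ones, and the change over both genotypes was -0.95 (SE 0.59, limma adjusted p = 0.235). Itga1, another collagen receptor chain, ranged from 1.84 to 6.59 FPKM in primary cells and from 1.19 to 10.9 FPKM in lines, and Itga2 was at most 0.259 FPKM except in adapted WT E14.4 (0.446 FPKM) and adapted E13.15 (3.35 FPKM), S13 (0.284 FPKM) and S14 (0.316 FPKM).

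Itga9 and Itga4 encode related alpha chains whose ligands include fibronectin and tenascin. For Itga9 the WT values were 9.36, 12.4 and 8.67 FPKM before and 0.927, 4.60 and 3.40 FPKM after adaptation, without overlap. The CIZ1 null values were 8.37, 3.50 and 6.96 FPKM and then 4.33, 3.90 and 6.403 FPKM, with overlap. Over both genotypes Itga9 passed narrowly (-0.94, SE 0.33, limma adjusted p = 0.0474), did not with the embryo as a block (adjusted p = 0.0564), and passed in 5 of 21 alternatives. Of the fits that left out 1 sample, it passed only without primary E13.17 or without adapted E14.2. Its change was -1.61 in WT (adjusted p = 0.0574) and -0.26 in CIZ1 null cells (adjusted p = 0.616), and the difference between these did not pass (1.34, unadjusted p = 0.0350, limma adjusted p = 0.996). Itga4 was at 0 to 1.24 FPKM in adapted WT lines, against 1.82 to 3.48 FPKM in their primary populations, and reached 7.51 FPKM in adapted E13.15.

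Of the beta chains, Itgb1 is the common partner of most of the alpha chains above and was the most abundant of them. It stood at 692, 565 and 778 FPKM in primary WT cells and at 375, 437 and 359.9 FPKM in their lines, without overlap. Its CIZ1 null levels were 519, 391 and 653 FPKM and then 605, 303 and 513 FPKM, with overlap. In WT cells it fell by 0.79 on the log2 scale (limma adjusted p = 0.0424, or 0.0946 with the embryo as a block), and it did not pass over both genotypes (-0.48, adjusted p = 0.0919).

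Itgb3, the beta 3 chain of an RGD-binding receptor with alpha v, had the largest change of the 28 genes over both genotypes. Primary WT cells had 12.3, 15.4 and 15.9 FPKM and their lines 1.30, 0.423 and 2.64 FPKM. CIZ1 null cells had 13.8, 12.7 and 14.6 FPKM and then 8.21, 0.494 and 6.49 FPKM. The 6 lines were all below the 6 primary populations, and adapted E13.15 and E14.2 kept more than the others. The change was -2.20 over both genotypes (SE 0.42, limma adjusted p = 0.00269), -2.76 in WT (adjusted p = 0.0138) and -1.65 in CIZ1 null cells (adjusted p = 0.163).

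Itgb5, a second partner of alpha v, moved little. Its values were 134, 106 and 118 FPKM in primary WT and 104, 117 and 92.0 FPKM in adapted WT cells, and 116, 137 and 129 FPKM and then 91.7, 103 and 134 FPKM in CIZ1 null cells. The groups overlapped and the change over both genotypes was -0.21 (SE 0.12, limma adjusted p = 0.206). Itgb7, a beta chain best known from leukocyte receptors, was the one gene that rose. It had 3.50, 3.96 and 3.72 FPKM in primary WT and 6.69, 6.95 and 6.21 FPKM in adapted WT cells, and 4.54, 5.35 and 4.26 FPKM and then 5.33, 12.2 and 7.06 FPKM in CIZ1 null cells. Every line was above its own primary population, and adapted E13.15 was just under primary E13.17. Over both genotypes the change was 0.65 (SE 0.16, limma adjusted p = 0.00910), and in WT 0.69 (adjusted p = 0.0443, or 0.0975 with the embryo as a block). The unit of Itgb7 also spans Csad and Zfp740, while summed leukocyte markers were at 3.47 to 27.1 FPKM in primary populations and 2.42 to 4.83 FPKM in lines. What part these have in the rise was not tested.

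The laminin alpha chains give each laminin its receptor preference. Lama2, the alpha 2 chain known from muscle, fell over both genotypes (-1.37, SE 0.40, limma adjusted p = 0.0212). Behind this were 11.7, 5.86 and 2.65 FPKM in primary WT and 6.69, 0.649 and 0.663 FPKM in adapted WT cells. In CIZ1 null cells it had 2.43, 2.37 and 3.80 FPKM and then 0.806, 0.359 and 0.134 FPKM, without overlap (-1.44, adjusted p = 0.0440, or 0.110 with the embryo as a block). Adapted WT E13.1, from the primary population with the highest Lama2, stood above most primary populations.

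Lama4, the alpha 4 chain of mesenchymal and endothelial laminins, was the main alpha chain of the primary cells. It had 20.6, 28.3 and 25.2 FPKM in primary WT and 8.83, 12.8 and 17.7 FPKM in adapted WT cells, without overlap (-0.90, limma adjusted p = 0.0825). In CIZ1 null cells it had 37.6, 39.3 and 37.8 FPKM and then 61.9, 13.2 and 48.5 FPKM, so that 2 lines were above and 1 below the primary values. Lama1, the alpha 1 chain of early embryonic laminin, was at most 0.485 FPKM in the 6 primary populations and at 0.0309 FPKM or less in 4 lines, but at 6.62 FPKM in adapted E13.8 and 2.79 FPKM in adapted E13.17.

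Beta and gamma chains are shared between laminins. Lamb1 had 109, 124 and 132 FPKM in primary WT and 47.9, 93.8 and 116 FPKM in adapted WT cells. CIZ1 null samples had 122, 94.4 and 138 FPKM and then 151, 121 and 181 FPKM. It was lower in all 3 WT lines and higher in all 3 CIZ1 null lines than in their own primary populations. Lamb2, the other beta chain, had 71.3, 58.7 and 46.1 FPKM in primary WT and 136, 26.7 and 16.5 FPKM in adapted WT cells, and 63.3, 39.7 and 69.3 FPKM and then 34.02, 21.3 and 18.99 FPKM in CIZ1 null cells. It was lower in every line except adapted E13.1 and did not pass over both genotypes (-0.86, limma adjusted p = 0.139). Lamc1, the common gamma chain, had 42.7, 54.6 and 45.6 FPKM and then 43.3, 41.9 and 20.7 FPKM in WT, and 51.1, 37.5 and 58.2 FPKM and then 52.3, 21.2 and 25.5 FPKM in CIZ1 null cells (-0.56 over both, adjusted p = 0.0960). Lama3 and Lamc3 were at 0.177 FPKM or less in all samples except adapted E14.4, which had 0.805 FPKM of Lama3 and 1.15 FPKM of Lamc3.

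Hspg2 encodes perlecan, the heparan sulphate proteoglycan that ties laminin to collagen IV. It had 193, 205 and 178 FPKM in primary WT and 92.9, 81.1 and 24.2 FPKM in adapted WT cells. Cells without CIZ1 had 158, 166 and 200.1 FPKM and then 75.8, 37.2 and 42.0 FPKM. All lines were below all primary populations, and the mean was 3.12-fold lower (log2 change -1.77, SE 0.30, limma adjusted p = 0.00134). Within the CIZ1 null cells it passed as well (-1.80, adjusted p = 0.0322, or 0.0907 with the embryo as a block), and in WT it did not (-1.73, adjusted p = 0.0715).

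Fn1, fibronectin, is the ligand of the alpha 5 chain and had the highest level of the 34 genes. Primary WT cells had 2658, 2401 and 2045 FPKM and their lines 669, 1718 and 407 FPKM. CIZ1 null cells had 1422, 1386 and 2063 FPKM and then 347, 900.0 and 1772 FPKM. It was lower in each line than in its own primary population, but adapted E13.8 and E14.2 were within the primary range. The change was -1.28 over both genotypes (SE 0.41, limma adjusted p = 0.0307), and it passed in 12 of 21 alternatives. The adjusted p was 0.109 after quantile normalization, and 0.0545 to 0.0649 without primary E14.4, E13.1, E13.8 or E14.2 or without adapted E13.1, E14.4 or E13.15.

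The other linkers did not pass. Nid1, nidogen 1, had 162, 205 and 221 FPKM in primary WT and 115, 118 and 132 FPKM in adapted WT cells, and 194, 115 and 199 FPKM and then 191, 62.6 and 141 FPKM in CIZ1 null cells. Its main unit was lower in 6 of 6 lines than in the primary population of the same embryo, by little in E13.15. That unit passed with the embryo as a block (-0.57, limma adjusted p = 0.0192, against 0.0981 without). The second unit of Nid1 (mean 45.2 FPKM) rose in E13.15 (42.8 to 68.8 FPKM), E13.1 (37.9 to 40.0 FPKM) and E14.2 (46.5 to 51.2 FPKM). It fell in E13.8, E14.4 and E13.17, so the fall in every embryo holds for the main unit only. Agrn, agrin, had 17.3, 12.6 and 20.3 FPKM and then 12.8, 14.1 and 2.66 FPKM in WT, and 19.7, 17.1 and 15.9 FPKM and then 11.3, 9.03 and 19.5 FPKM in CIZ1 null cells (-0.69, adjusted p = 0.132). Within embryos, the main units of 8 of the 28 genes were lower in all 6 lines, where 18.5% of all units were, and 1 was higher in all 6, where 14.4% were.

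**Figure D3:**
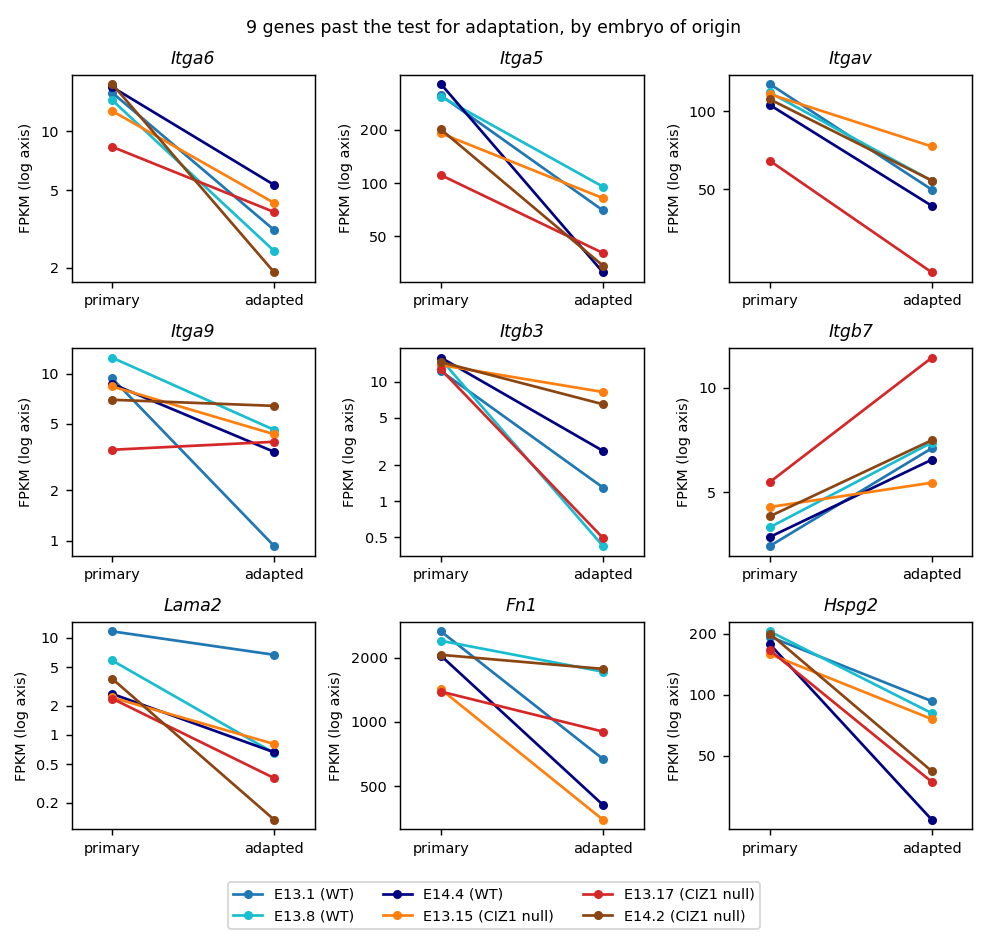
FPKM (log axis) of the 9 genes called over both genotypes in each primary population and in the adapted line of the same embryo, joined by a line and coloured by embryo. In 8 panels at least 5 of 6 lines slope down, and in the panel of Itgb7 all 6 slope up.

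Some of these genes separated the adapted lines from each other more than adapted from primary cells. Lama5, the alpha 5 chain of the most widespread adult laminin, was at 4.34 to 16.2 FPKM in the 6 primary populations. In the lines it was at 49.8 FPKM in E13.1, 27.9 FPKM in E13.8 and 26.3 FPKM in E13.17, but at 0.357 FPKM in E14.4, 2.42 FPKM in E13.15 and 0.0294 FPKM in E14.2. Nid2, nidogen 2, was at 13.6 to 19.9 FPKM in primary populations and at 78.9, 69.2 and 100.1 FPKM in adapted E13.1, E13.8 and E13.17, 30.3 FPKM in E13.15, 6.79 FPKM in E14.4 and 4.08 FPKM in E14.2. The 3 lines highest in Lama5 were also the 3 highest in Nid2, in Itga3 (11.3, 18.2 and 14.6 FPKM) and, at low level, in Itgb8 (0.276, 1.51 and 2.90 FPKM). These lines come from both genotypes, and the set was seen in the data and not tested. The other 3 lines were the 3 highest in Lama4 (17.7 FPKM in E14.4, 61.9 in E13.15 and 48.5 in E14.2). Of these, E14.4 was nonetheless below the primary range of Lama4 (20.6 to 39.3 FPKM).

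**Figure D4:**
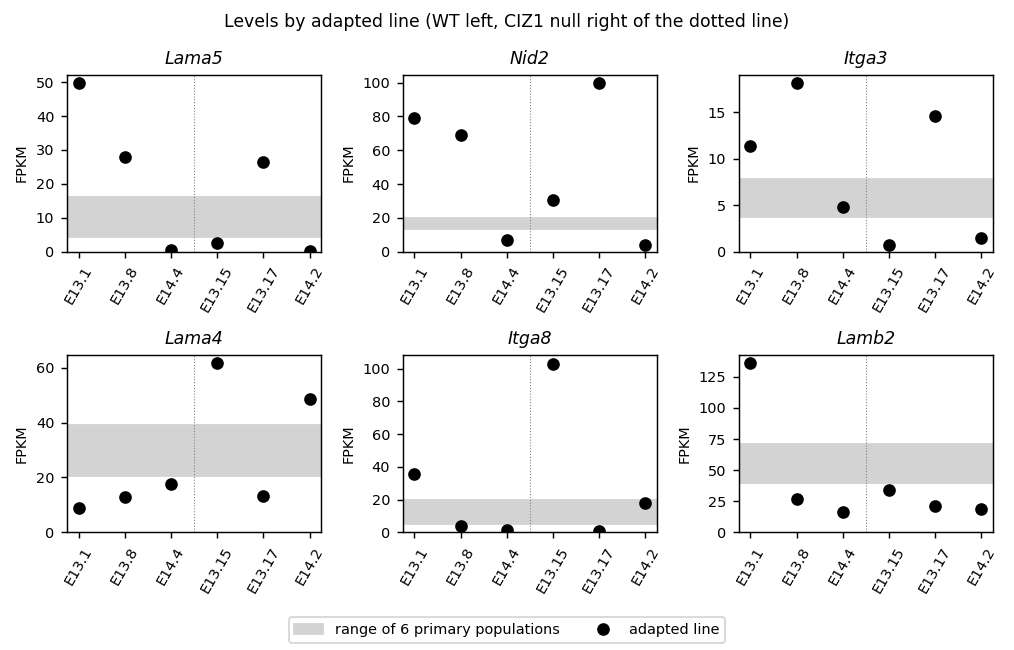
FPKM of 6 genes in each adapted line (points, WT left and CIZ1 null right of the dotted line), with the range of the 6 primary populations in grey. Adapted E13.1, E13.8 and E13.17 lie above the grey band for Lama5, Nid2 and Itga3 and below it for Lama4. Adapted E13.15 also lies above the band for Nid2, and adapted E14.4 also lies below it for Lama4.

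The spread between lines was also larger than in the average unit. The median SD of the 28 genes on the log2(FPKM + 1) scale was 0.204 in primary WT, 0.33 in primary CIZ1 null, 0.666 in adapted WT and 0.664 in adapted CIZ1 null cells. Over all units the medians were 0.184, 0.215, 0.361 and 0.357. The SD was larger in adapted than in primary cells for 25 of 28 genes in WT and 25 of 28 in CIZ1 null cells, against 77.2% and 72.2% of all units. At a mean of at least 20 FPKM, where 13 of the genes remained, the medians in adapted cells were 0.655 and 0.667, against 0.355 and 0.358 over all units of that level. Relative depth ran from 0.54 to 1.18 in the lines, and its part in this spread was not tested.

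The second question was what the loss of CIZ1 does. In primary cells, 0 of 28 genes passed the limma test, where 0.00511% of all units (Ciz1 itself) did, and 3 had an unadjusted p under 0.05, where 6.26% of all units did. The study, using cuffdiff on the same populations, reported a larger set of units changed by CIZ1 loss in primary cells, and fewer in adapted cells. With 3 samples per group, a unit that did not pass here is not shown to be unchanged. Groups did not overlap for 4 of the 28, against 11.9% of all units. Itga5 was at 307 to 362 FPKM in WT and 111 to 201 FPKM in CIZ1 null cells (-1.01, SE 0.23, unadjusted p = 0.00353, adjusted p = 0.639). Lama4 was at 20.6 to 28.3 FPKM in WT and 37.6 to 39.3 FPKM in CIZ1 null cells (0.62, SE 0.14, unadjusted p = 0.00308, adjusted p = 0.628). Fn1 was the third (-0.56, SE 0.18, unadjusted p = 0.0190, adjusted p = 0.728), with overlapping groups.

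As a share of the summed FPKM of 11 alpha chains, leaving out the unit of Itga10, Itga5 made up 59.6% to 62.3% in primary WT and 45.1% to 47.0% in primary CIZ1 null cells. The share was 32.0% to 39.8% in adapted WT lines and 18.3% to 34.3% in adapted CIZ1 null lines. Of the 3 samples outside these groups, S13 had 25.3%, S14 had 46.7% and S15 had 37.5%, so that S13 lay well below the other primary CIZ1 null samples. Summed alpha chain levels were 512 to 581 FPKM in primary WT, 245 to 445 FPKM in primary CIZ1 null, 97.9 to 239 FPKM in adapted WT and 117 to 339 FPKM in adapted CIZ1 null cells. These shares are a description, chosen after the values were seen. In bulk samples, fewer cells of a type and less RNA per cell cannot be told apart.

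**Figure D5:**
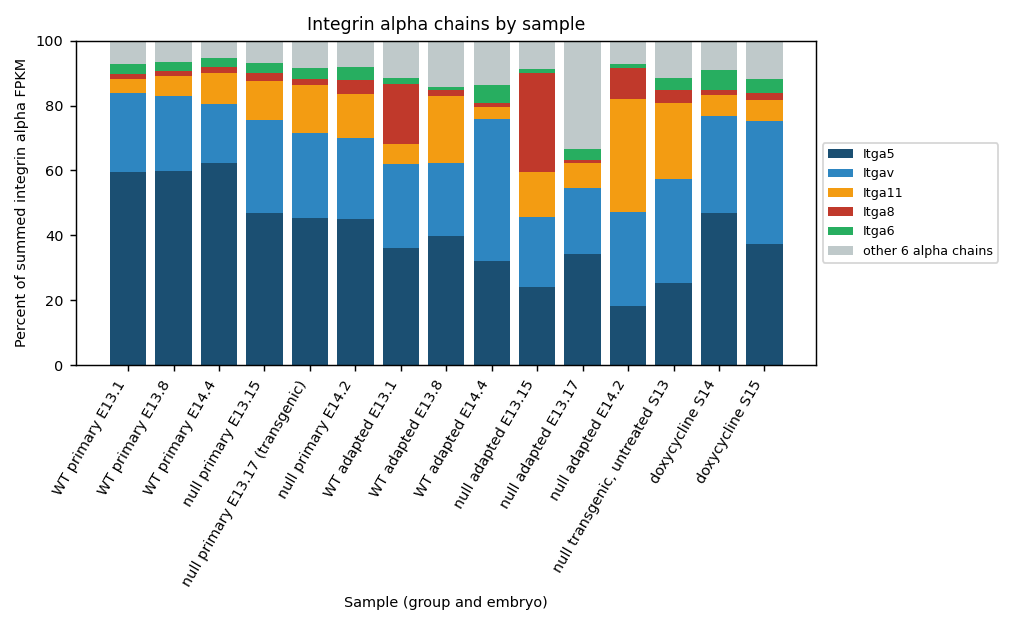
Percent of the summed FPKM of 11 integrin alpha chains in each of 15 samples, with 5 chains shown singly and the other 6 together. The dark Itga5 segment is tallest in the 3 primary WT populations (59.6% to 62.3%) and Itga8 takes 30.4% in adapted E13.15.

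In adapted cells, 0 of 29 genes passed (0.00501% of all units, Ciz1, did) and 0 had an unadjusted p under 0.05 (4.02% of all units). Lamb1 was the 1 gene whose groups did not overlap, at 47.9 to 116 FPKM in WT and 121 to 181 FPKM in CIZ1 null lines (0.88, SE 0.37, limma adjusted p = 0.998), where 8.28% of all units did not. Whether adaptation differed between genotypes was tested as an interaction, in which 0 of 28 genes and 0% of all units passed, and 2 genes, Itga9 and Lamb1, had an unadjusted p under 0.05 (4.63% of all units). The genes called in only 1 genotype are therefore not shown to differ between genotypes.

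Doxycycline, which induces the GFP-CIZ1 transgene, changed none of these genes past the threshold. By limma, 0 of 28 passed (0.0101% of all units did), 2 had an unadjusted p under 0.05 (1.76% of all units), and groups of 2 did not overlap for 8 (19.7% of all units). Itga11 was at 36.0 FPKM in untreated E13.17 and 52.9 FPKM in untreated S13, and at 16.9 FPKM in S14 and 12.1 FPKM in S15 (-1.55, SE 0.34, unadjusted p = 0.00442, adjusted p = 1.0). Itga9 was the other, at 3.50 and 2.29 FPKM untreated and 5.53 and 7.79 FPKM treated (0.98, SE 0.34, adjusted p = 1.0). For some genes the samples within a group differed widely. Itga5 was at 111 FPKM in E13.17 and 57.3 FPKM in S13 without doxycycline, and at 121 FPKM in S14 and 70.7 FPKM in S15 with it. Lama5 was at 8.11 and 1.31 FPKM without and at 9.69 and 0.463 FPKM with doxycycline. In both genes E13.17 and S14 were the higher samples of their groups. Over units with a mean above 1 on the log2(FPKM + 1) scale, levels correlated most between E13.17 and S14 (r = 0.961) and between S13 and S15 (r = 0.953), against 0.919 to 0.935 for the other pairs of these 4 samples. The labels do not tie S13, S14 and S15 to embryos, so the doxycycline test is unpaired and takes no account of embryos that treated and untreated samples may share.

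Genes that work with these receptors and ligands were followed as 3 lists, to be read against all units, of which 19.1% were lower and 14.1% higher over both genotypes, with a median change of -0.05. Of the integrin adhesome, the cytoplasmic proteins that join integrins to actin, 14 of 22 genes tested fell over both genotypes and 0 rose (63.6% lower, median change -0.94). The largest changes by limma were in Tns1, a tensin (-2.20, adjusted p = 0.000322), Zyx, zyxin (-1.75, adjusted p = 0.00135), Tgfb1i1, which encodes Hic-5 (-1.47, adjusted p = 0.00144), and Actn1, alpha-actinin 1 (-1.34, adjusted p = 0.00347). Of other basement membrane and integrin ligand genes, 10 of 19 fell and 0 rose (52.6%, median -1.31), led by Tnc, tenascin C (-2.94, adjusted p = 0.0166), Col15a1 (-2.43, adjusted p = 0.00120), Ntn4, a laminin-related netrin (-2.18, adjusted p = 0.0106), and Col4a1 (-2.14, adjusted p = 8.55e-05). By embryo, Tnc rose in E13.15, from 1110 to 1304 FPKM, and fell in the others. The dystroglycan complex, the laminin receptor that is not an integrin, was mixed, with 4 of 12 higher (33.3%) and 2 lower (16.7%, near the share of all units), and a median of 0.13. Dmd, dystrophin (-1.46, adjusted p = 0.0312), was lower, while Sgce, epsilon-sarcoglycan (1.26, adjusted p = 0.000192), and Sspn, sarcospan (1.01, adjusted p = 0.00570), were higher. In primary cells without CIZ1 no gene of the 3 lists passed, and 2 of 22, 3 of 19 and 0 of 11 had an unadjusted p under 0.05, where 6.26% of all units did. Of 8 integrin and laminin genes outside the 34, 2 were tested over both genotypes and 0 passed, with 0 at an unadjusted p under 0.05.

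Marker levels moved with adaptation too. The sum of 8 fibroblast markers was 7847 to 8556 FPKM in the 6 primary populations and 1774 to 4648 FPKM in the 6 lines. Col1a1, Col1a2 and Vim were called lower over both genotypes, and the other 5 (Thy1, Pdgfra, Dcn, Lum and Prrx1) were not called. Dcn, decorin, went the other way in some lines, from 24.1 to 68.5 FPKM in primary populations to 905 FPKM in adapted E14.4, 800.0 FPKM in E13.15 and 993 FPKM in E14.2. Of smooth muscle markers (Acta2, Tagln, Myh11, Cnn1 and Lmod1) the sum was 4491 to 9877 FPKM in primary populations and 451 to 5435 FPKM in lines, and Tagln, Acta2 and Myh11 were called lower. The 5 skeletal muscle markers were at or near 0 except Des, desmin, which smooth muscle also makes and which had 6.14 to 13.6 FPKM in primary populations and 0 to 0.687 FPKM in lines, while Myod1, Myf5 and Ckm were at 0 throughout. Tyrobp, a myeloid marker, was at 0.179 to 9.87 FPKM in primary populations and at 0 in all 6 lines. Epithelial markers summed to at most 12.7 FPKM in primary populations and 0.413 FPKM in lines, endothelial markers to at most 1.65 and 2.70 FPKM, Schwann and neural crest markers to at most 7.91 and 1.20 FPKM, and neuron markers to at most 7.53 and 23.7 FPKM. The part of these differences in the changes above was not tested.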

How the data were processed

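RNA was taken from 15 populations of mouse embryonic fibroblasts. The authors trimmed reads with cutadapt 1.8.3, aligned them with HISAT2 2.0.5 to GRCm38, assembled transcripts with Cufflinks and deposited FPKM per transcription unit and sample, normalised across samples by Cuffnorm. FPKM hold no counts, so no count model was run and counting error cannot be given. Low values (under 0.3 FPKM) gave relative depth. Strandedness is not given in the sources used here. A second deposited table holds the authors' own comparisons from Cuffdiff (group means, fold changes and p-values) and was not used.

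Groups came from the labels. The embryo of 12 samples came from identity with the per-line lists of the study (737 to 845 values per sample, 100% identical); 1 label of the untreated transgenic E13.17 sample reads S13. In those lists adapted E13.17 also stems from the transgenic embryo, although its label names CIZ1 -/- alone. Primary and adapted samples of 1 embryo could thus be matched, but the main fits had no term for the embryo. They took a primary population and its own line as separate samples, and the embryo block was an alternative. Deviations from group means of the matched samples correlated at 0.211 (E14.4), 0.146 (E13.1), -0.01 (E13.8), 0.111 (E13.15), 0.089 (E13.17) and -0.021 (E14.2). No 2 samples had identical values, and all sample columns were used.

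From FPKM, log2(FPKM + 1) was computed and tested with limma 3.58.1 in R 4.3.3 (lmFit, eBayes with trend) over units with a mean of at least 1 FPKM in the samples of the fit, two-sided, with Benjamini-Hochberg adjustment over all units tested and a threshold of 0.05. The fit over both genotypes had genotype as a term; all comparisons of adaptation and of CIZ1 loss share samples. Fold changes on this scale understate changes of low genes. Folds of means are of FPKM. The script was tested on simulated data.

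The 34 genes and all lists were chosen with earlier results of these data known. Every gene is described by its highest unit. Values by sample were given for genes called in any of 7 tests and then for the most abundant genes until 20 were covered; of other lists, counts and at most 4 called genes with the largest change were given. Coordinates of promoters are from RefSeq (GRCm38.p6). Gene spans came from GENCODE vM21, on the same assembly. Alternatives were a pseudocount of 0.1, no filter, a mean of at least 5 FPKM, quantile normalization, summed units, all groups in a single fit, the embryo as a block, 4 or 2 primary CIZ1 null samples, and leaving out each sample in turn. Array weights, the block in the interaction and doxycycline against 4 untreated samples were added after seeing the data. Python 3.11.15 with pandas 2.3.3, NumPy 2.4.6 and Matplotlib 3.10.9 did the rest. Some genes are not reported here.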

Additional observations from a re-analysis of the deposited data

Results flagged for a closer look

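Lamb1, a laminin beta chain, was picked out because it moved in opposite directions on adaptation in the 2 genotypes. By embryo, the change on the log2(FPKM + 1) scale was -1.18 (E13.1), -0.41 (E13.8) and -0.19 (E14.4) in WT cells and 0.30 (E13.15), 0.36 (E13.17) and 0.39 (E14.2) in CIZ1 null cells. The test of the difference gave 0.94 (SE 0.42, unadjusted p = 0.0487) and did not pass after adjustment by limma over 20046 units (adjusted p = 0.996, or 0.939 with the embryo as a block). The groups hold 3 samples each, too few for the search for single samples that stand apart.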

How the results depend on the processing

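Of 319 results for single called genes under alternatives, 232 stayed past the threshold, 87 kept their direction without passing it and 0 reversed. These totals include array weights, which were added after seeing the data. They also count the fit with 2 primary CIZ1 null samples under a second name, as the fit without primary E13.17. Over both genotypes, Itga5, Itga6, Itgav, Itgb3, Itgb7, Hspg2 and Lama2 passed in every alternative that could be fitted for them, and the count of genes was 7 to 11; blocking on the embryo gave 9, with Nid1 in place of Itga9. In WT cells the count was 6, and 3 with the embryo as a replicate block (9.55% and 2.51% of all units); leaving out 1 sample gave 0 to 10 (0.311% to 15% of all units). In CIZ1 null cells it was 3, and 0 with the block; it was 1 with a pseudocount of 0.1, 0 without a filter, 1 with 4 and 0 with 2 primary CIZ1 null samples and 5 with array weights, and leaving out 1 sample gave 0 to 6 (0.125% to 15% of all units). A fit without 1 sample has fewer residual degrees of freedom; the cause of the other shifts was not tested. CIZ1 loss in primary and in adapted cells, the difference between genotypes (also with the block) and doxycycline called 0 genes in every alternative. The dystroglycan list over both genotypes had 3 called genes without a filter and 2 to 6 with 1 sample left out.

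With a pseudocount of 0.1, the median SD of the genes was 0.232 in primary WT, 0.368 in primary CIZ1 null, 0.893 in adapted WT and 0.759 in adapted CIZ1 null cells. After quantile normalization the median over all units was 0.06, against -0.05 before, in the fit over both genotypes; the share of lower calls then was 52.4% against 69.9% in WT and 58.8% against 71.3% in CIZ1 null cells. FPKM hold no counts, so depth sets no stated limit on low genes.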
